A study of Mus musculus with 32 samples.

Results

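Undifferentiated tumour macrophages were compared with normal microglia in mouse brain. The members were libraries: the 8 that the labels call tumour undifferentiated macrophages and the 8 that they call normal microglia, 16 of 32 in the series. The cells were sorted by flow cytometry, and their RNA was sequenced after cDNA synthesis with the SMART-Seq v4 low-input kit. The undifferentiated macrophages came from chimeric mice, which carry a graft from a second mouse strain, and these mice had received GL-261 cells in the brain. GL-261 is a mouse glioma line that grows in C57BL/6 mice. Of the undifferentiated macrophage libraries, 4 came from WT recipients (C57BL/6J) with a PEP-3 graft, in experiment 3, and 4 from Pep3/CD45.1 recipients with a WT graft, in experiment 4. Normal microglia came from mice with no tumour and no graft, 4 libraries from WT mice in experiment 1 and 4 from Pep3/CD45.1 mice in experiment 2. Tumour, graft and experiment therefore changed together between undifferentiated macrophages and normal microglia and cannot be told apart. Tumour microglia, used further below, came from WT recipients with a PEP-3 graft in experiment 4 and Pep3/CD45.1 recipients with a WT graft in experiment 3. Within a recipient strain they therefore differ from undifferentiated macrophages in experiment too. Differentiated macrophages had the same recipients, grafts and experiments as undifferentiated ones. The sources used here do not give the sorting gates, the ages of the mice or whether each library came from its own animal. The p-values rest on the spread among all 32 libraries, which were fitted together, and that spread may be technical.

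Microglia are the macrophages that live in brain tissue. They settle there in the embryo, renew themselves locally and hold a distinct set of receptors and transcription factors that depends on signals of the brain, TGF-beta among them. Monocytes are made in the bone marrow, circulate in blood and enter an injured or tumour-bearing brain, where they become macrophages over days. Young cells of that lineage in mice carry the surface protein Ly6C and the chemokine receptor Ccr2.

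The deposited values are signed scores, centred for each gene, so they show which libraries are high or low for a gene but not how much RNA of the gene was present. Differences are given in units of that scale with ± 1 standard error and rest on 8 libraries against 8. Sequencing depth is unknown. Since the scores hold no totals, fewer cells of a type in a sort and less RNA per cell cannot be told apart. Library medians ran from -0.49 to 0.053 in normal microglia and from 0.058 to 0.46 in undifferentiated macrophages, so the groups did not overlap even in their medians. The deposited values carry no variation in 11 directions across the libraries, and 9 libraries of the series kept under 50% of their own variation. These included 4 of the 8 normal microglia libraries, numbered 1, 10, 18 and 26, and 2 of the undifferentiated macrophages, numbered 8 and 29. Added up, the variation kept came to 4.04 libraries of 8 in normal microglia and 5.31 of 8 in undifferentiated macrophages. The 8 and 8 libraries were therefore not fully independent, also where a lack of overlap is counted below.

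Of 17586 genes, 3838 were higher in undifferentiated macrophages than in normal microglia and 1087 were lower (limma, Benjamini-Hochberg adjusted p below 0.05), or 21.8% and 6.18% of the genes tested. The median difference over all genes was 0.57. Subtracting each library's median score lowered every difference by 0.48, and then 1373 genes were higher (7.81%) and 1860 lower (10.6%), which moved the higher share of the calls from 77.9% to 42.5%. The 1373 genes were all among the 3838, and all 1087 lower genes were among the 1860. The 8 macrophage libraries lay wholly above the 8 microglia libraries for 969 genes (5.51%) and wholly below them for 562 (3.20%), and limma called 937 and 543 of these. A difference of 2 units or more was called for 925 higher and 328 lower genes. The higher count was 1272 without normal microglia library 2, 1442 without library 26, 2328 without library 10 and 2459 without library 1, and 2126 without undifferentiated macrophage library 29. The lower count was 649 without normal microglia library 1, 660 without library 2, 670 without library 26 and 701 without library 10. In WT recipients alone limma called 0 genes in either direction, with 1442 higher and 538 lower at an unadjusted p below 0.05.

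**Figure D1:**
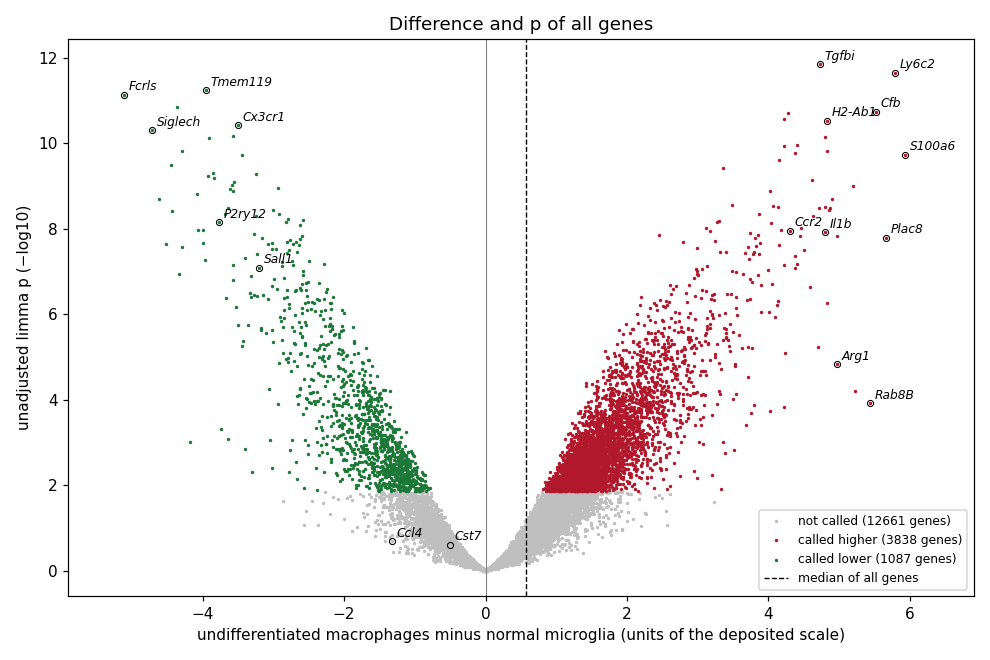
Each point is 1 of 17586 genes, placed by its difference between undifferentiated macrophages and normal microglia and by the −log10 of its unadjusted limma p. Called genes are coloured, and the dashed line marks the median of all genes at 0.57. Ly6c2 and S100a6 lie at the right edge, Fcrls and Siglech at the left edge, and Ccl4 and Cst7 near the bottom among the genes that were not called.

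Of the 4 genes proposed as markers of the undifferentiated macrophages, Ly6c2 and Ccr2 were higher in them than in normal microglia, and Ccl4 and Cst7 were not. Ly6c2 encodes the Ly6C protein of young monocytes. Its lowest, median and highest scores were -3.11, -1.94 and -1.29 in normal microglia and 1.20, 2.56 and 4.81 in undifferentiated macrophages, a difference of 5.80 ± 0.43 (limma adjusted p = 2.0e-08). The groups lay more than 2 units apart at their nearest libraries. Ly6c1, a near-identical neighbour, was not analysed here, and reads of the pair may have been split between them, so the Ly6c2 value is uncertain in that respect. Ccr2, the receptor through which monocytes follow Ccl2 out of the marrow, scored -3.03, -1.33 and -0.52 in normal microglia and 1.27, 1.93 and 4.05 in the macrophages, and differed by 4.31 ± 0.50 (limma adjusted p = 2.9e-06). Ccl4, an inflammatory chemokine, scored -3.01, -0.41 and 0.62 in normal microglia and -4.27, -1.59 and 0.47 in undifferentiated macrophages, with a difference of -1.32 ± 1.01 (limma adjusted p = 0.33) and full overlap of the groups. Cst7, a cysteine protease inhibitor known from microglia near amyloid plaques, scored -2.16, -0.71 and 1.71 and -1.90, -0.77 and -0.28, with a difference of -0.50 ± 0.42 (limma adjusted p = 0.38). Leaving out normal microglia library 18 gave Ccl4 -2.47 (limma adjusted p = 0.040), a call, whereas without library 2 it was at 0.017 (0.99) and without undifferentiated macrophage library 29 at 0.089 (0.96). Cst7 ranged from -1.15 (0.097) without normal microglia library 1 to 0.25 (0.79) without library 2. The first pair of markers thus separated the populations, and the second pair did not. Whether Ly6C was part of the sorting gate is not known. If it was, the Ly6c2 differences given here would follow at least partly from the sort. Ly6c2 was also one of the 2 genes that limma called between undifferentiated and differentiated tumour macrophages (0.0114% of genes), with a difference of 3.17 ± 0.48 (limma adjusted p = 0.017). S100a4 was the other, at 3.10 ± 0.51 (limma adjusted p = 0.032).

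**Figure D2:**
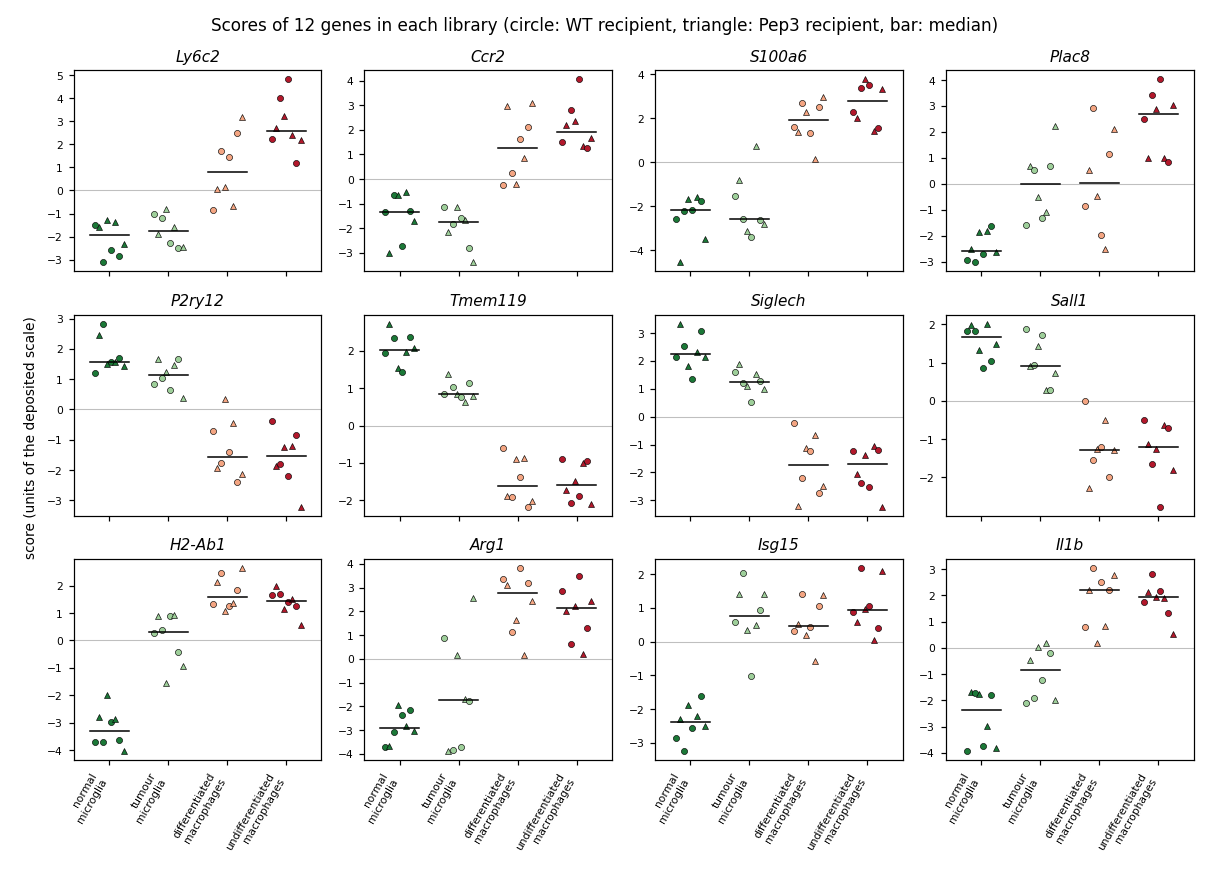
Scores of 12 genes in every library of the 4 populations, in units of the deposited scale, with circles for WT and triangles for Pep3 recipients and a bar at each median. For all 12 genes the 8 undifferentiated macrophage libraries and the 8 normal microglia libraries do not overlap, with the macrophages high for Ly6c2, Ccr2, S100a6, Plac8, H2-Ab1, Arg1, Isg15 and Il1b and low for P2ry12, Tmem119, Siglech and Sall1.

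All 20 genes of the homeostatic microglia list were lower in undifferentiated macrophages, beside 6.18% of all genes, with a median difference of -3.42 beside 0.57 over all genes. For 19 of the 20 the macrophage libraries lay wholly below the microglia libraries, beside 3.2% of all genes. Fcrls, an Fc receptor-like protein of mouse microglia, had the most negative difference of any gene. Its lowest, median and highest scores were 2.03, 2.96 and 3.23 in normal microglia and -3.19, -1.70 and -0.93 in the macrophages, a difference of -5.11 ± 0.40 (limma adjusted p = 3.2e-08). Siglech, a sialic acid-binding receptor, scored 1.36, 2.24 and 3.34 against -3.22, -1.70 and -1.05, a difference of -4.71 ± 0.41 (limma adjusted p = 8.1e-08). Slc2a5, the fructose transporter of microglia, differed by -4.62 ± 0.49 (limma adjusted p = 9.3e-07), and Sparc, a secreted matrix protein, by -4.45 ± 0.43 (limma adjusted p = 2.5e-07). All microglia libraries were above 1.3 for these 4 genes and all macrophage libraries were below 0.

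The textbook surface markers of microglia behaved alike. P2ry12, the purine receptor that guides microglial processes to injury, scored 1.21, 1.55 and 2.83 in normal microglia and -3.20, -1.52 and -0.37 in undifferentiated macrophages, a difference of -3.77 ± 0.43 (limma adjusted p = 2.1e-06). Tmem119, a membrane protein used to tell microglia from blood-derived cells, scored 1.44, 2.03 and 2.73 and -2.12, -1.61 and -0.90, a difference of -3.95 ± 0.31 (limma adjusted p = 3.2e-08). Cx3cr1, the fractalkine receptor, which monocytes also carry, differed by -3.51 ± 0.30 (limma adjusted p = 6.8e-08). The smallest difference on the list was that of Mertk, a receptor for apoptotic cells, at -1.49 ± 0.51 (limma adjusted p = 0.033), and Csf1r, the growth factor receptor that both lineages need, differed by -2.58 ± 0.29 (limma adjusted p = 1.9e-06). The 20 genes were also all lower after library medians were subtracted, and 19 were lower without the 9 libraries that kept under 50%, fitted with no terms for the removed directions. With the terms kept, that exclusion left 0 of 20 called at a median of -2.67. WT recipients alone also gave 0, Pep3 recipients alone 10 lower, and a fit of only the 16 libraries compared 17 lower. None of the 12 largest lower differences lost its call when any 1 of the 16 libraries was left out.

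Genes outside the list among the 12 largest lower differences were Snora81, Plxdc2, AK043564, Ecscr, Ltc4s, Mlxipl and Fscn1, besides Bin1, which is on it. Bin1, a membrane-curving protein, differed by -4.43 ± 0.49. Plxdc2, a plexin domain receptor, differed by -4.36 ± 0.36 and scored 1.32, 2.21 and 2.94 in normal microglia against -3.23, -1.79 and -0.96 in the macrophages. Ltc4s makes leukotriene C4 and differed by -4.29 ± 0.40. Mlxipl, the carbohydrate-sensing transcription factor ChREBP, differed by -4.08 ± 0.42. Fscn1, an actin-bundling protein and also a marker of mature dendritic cells, differed by -4.06 ± 0.47. The small nucleolar RNA Snora81 differed by -4.52 ± 0.55, and unlike the others it was also lower in tumour microglia than in normal microglia by 3.34 ± 0.51 (limma adjusted p = 3.2e-04), in a comparison where 4.66% of genes were higher and 12% lower.

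On the monocyte list, 13 of 16 genes were higher in undifferentiated macrophages, none was lower, and the median difference was 3.72. After library medians were subtracted 12 were higher. Over all genes the higher share was 21.8%, and 7.81% with medians subtracted. S100a6, a calcium-binding protein, had the largest difference of any gene: it scored -4.54, -2.17 and -1.58 in normal microglia and 1.42, 2.80 and 3.76 in the macrophages, a difference of 5.93 ± 0.55 (limma adjusted p = 1.6e-07). Plac8, a small protein of monocytes and granulocytes, scored -3.03, -2.59 and -1.62 and 0.86, 2.69 and 4.03, a difference of 5.66 ± 0.67 (limma adjusted p = 3.7e-06). The S100a6 and Plac8 scores of all 8 macrophage libraries were above 0.8 and those of all microglia libraries below -1.5. S100a4, another member of the S100 family, differed by 4.62 ± 0.46, Ms4a4c by 4.21 ± 0.54, Hp, the haemoglobin-binding protein haptoglobin, by 3.76 ± 0.85, and Cd44, the hyaluronan receptor, by 3.67 ± 0.46. Chi3l3, the chitinase-like protein Ym1, differed by 4.23 ± 0.74. The members not called were Vcan at 0.51 ± 0.34, Nr4a1 at 1.22 ± 0.56 and Spn at 1.19 ± 0.59. Nr4a1 is the factor that patrolling, Ly6C-low monocytes need.

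On the list of monocyte-derived macrophage genes 14 of 16 were higher and 1 was lower, with a median of 2.79, and none was lower without normal microglia library 2 or 10 or undifferentiated macrophage library 24. The shares were 87.5% and 6.2%, beside 21.8% and 6.18% of all genes. Tgfbi, a matrix protein induced by TGF-beta, scored -2.55, -2.23 and -1.54 in normal microglia and 1.43, 2.14 and 3.42 in the macrophages, a difference of 4.73 ± 0.35 (limma adjusted p = 2.0e-08). Runx3, a Runt transcription factor, differed by 4.59 ± 0.64 (limma adjusted p = 2.6e-05), Ms4a7 by 4.00 ± 0.52 and Vim, the intermediate filament protein vimentin, by 4.06 ± 0.44. Itga4, the integrin alpha 4 chain used to separate infiltrating macrophages from microglia, scored -3.00, -0.34 and 0.10 against 0.29, 0.56 and 2.24. Whether it was used in this sort is not known. Its groups did not overlap, but its difference of 1.70 ± 0.52 (limma adjusted p = 0.019) was smaller, fell to 1.23 (adjusted p = 0.086, limma) once library medians were subtracted, and ranged from 1.36 to 2.07 with adjusted limma p from 0.054 to 0.16 in the 5 fits that ended its call, those without normal microglia library 1, 2, 10 or 26 or undifferentiated macrophage library 21.

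Myeloid transcription factors moved in both directions: 5 of 21 were higher, 9 lower and 7 not called, with a median of -0.86, and 5 were higher and 11 lower with library medians subtracted. The higher share, 23.8%, was near the 21.8% of all genes, and the lower share was 42.9% beside 6.18%. With library medians subtracted, 7.81% of all genes were higher and 10.6% lower. Sall1, the zinc finger factor that fixes microglial identity, scored 0.87, 1.66 and 2.02 in normal microglia and -2.76, -1.20 and -0.50 in undifferentiated macrophages, a difference of -3.20 ± 0.42 (limma adjusted p = 1.1e-05). Its relative Sall3 differed by -2.59 ± 0.36, Mef2c by -2.67 ± 0.33, Mef2a by -2.03 ± 0.47, Irf8 by -2.15 ± 0.31 and Zfhx3 by -2.59 ± 0.31. The higher members were Runx3, Nr1h3 at 4.40 ± 0.57, Bhlhe40 at 2.96 ± 0.61, Tfec at 2.86 ± 0.65 and Cebpb at 2.08 ± 0.35. Nr1h3 encodes the oxysterol receptor LXR alpha, and Cebpb is a factor of emergency myelopoiesis and macrophage activation. The factors shared by the whole lineage were among those not called, with Sfpi1, which encodes PU.1, at -0.35 ± 0.41 and Runx1 at -0.37 ± 0.33. Of 12 genes of TGF-beta signalling, 5 were lower and none was higher, with a median of -0.36, and 1 was higher without normal microglia library 2, 18 or 25 or undifferentiated macrophage library 16. Tgfbr1, a receptor chain that microglia need, differed by -2.02 ± 0.30 (limma adjusted p = 6.2e-05), Smad7, a feedback inhibitor, by -1.73 ± 0.36 (limma adjusted p = 0.0015), Tgfbr2 by -1.28 ± 0.34 and Ski by -1.45 ± 0.30. Tgfb1, the ligand, differed by -2.10 ± 0.54, and by -1.24 (adjusted p = 0.16, limma) without normal microglia library 1 and -2.05 (adjusted p = 0.058) without library 26. Ski was at -1.15 (adjusted p = 0.062, limma) without library 2.

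**Figure D3:**
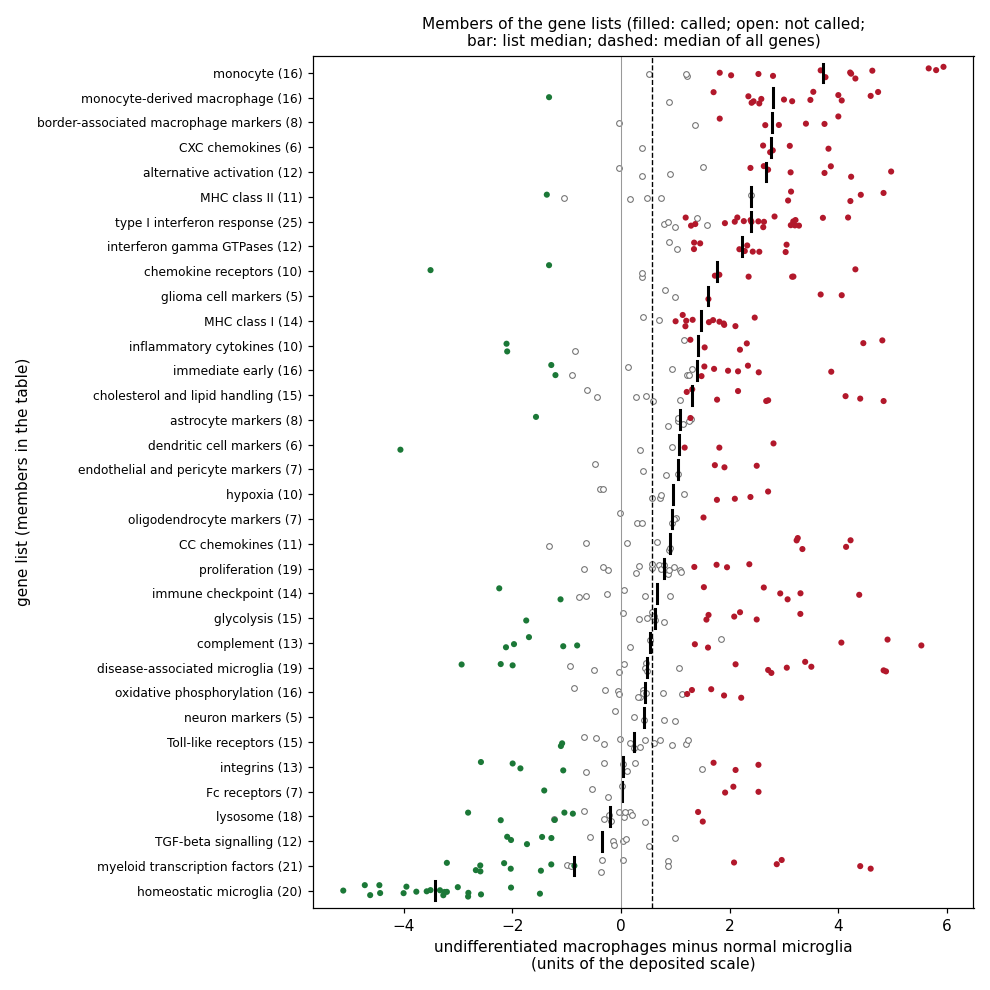
Each row is a gene list with 5 or more members in the table, and each point is a member, placed by its difference between undifferentiated macrophages and normal microglia in units of the deposited scale. Filled points were called, open points were not, the bar marks the median of the list and the dashed line the median of all genes at 0.57. The homeostatic microglia list lies wholly to the left, at a median of -3.42, and the monocyte list furthest to the right, at 3.72.

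Most of the listed genes that interferons induce were higher in undifferentiated macrophages, as counted below. Interferons bind receptors that activate Stat proteins and Irf factors, which in turn bind short elements in the promoters of antiviral genes and of the antigen presentation machinery. Several of these promoters hold the letters GAAANNGAAA, the core of the interferon-stimulated response element, within the 250 bases before the start of the gene in RefSeq (build GRCm38.p6). The element was searched on both strands, where it reads TTTCNNTTTC on the other strand, and a match could overlap another. The search was added after the differences were seen. It is in 8 of 18 promoters of the type I interferon list that had an entry (44.4%), in 7 of 7 of the interferon-gamma GTPases (100%), in 0 of 13 of the homeostatic microglia list and 0 of 11 of the monocyte list, and in 372 of 10913 promoters of genes in the table (3.41%). Stretches of 6 promoters are shown, picked from genes of the lists described next that hold a match, with the matches in capitals. Promoters without a match are not shown. They include those of Irf7, which had the largest difference of the type I list, and of Oasl2, Xaf1 and Ifitm3.
Isg15, chr4:156200845-156200914, minus strand: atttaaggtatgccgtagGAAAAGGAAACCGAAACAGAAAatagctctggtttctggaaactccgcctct
Oas3, chr5:120777695-120777764, minus strand: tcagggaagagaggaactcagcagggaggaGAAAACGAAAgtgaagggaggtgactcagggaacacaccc
Rsad2, chr12:26456533-26456602, minus strand: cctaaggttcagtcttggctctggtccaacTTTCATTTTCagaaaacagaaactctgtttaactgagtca
Gbp2, chr3:142620574-142620643, plus strand: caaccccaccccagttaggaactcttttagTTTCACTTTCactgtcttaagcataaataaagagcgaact
Igtp, chr11:58199486-58199555, plus strand: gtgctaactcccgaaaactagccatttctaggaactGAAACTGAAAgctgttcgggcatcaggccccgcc
Irgm1, chr11:48871421-48871490, minus strand: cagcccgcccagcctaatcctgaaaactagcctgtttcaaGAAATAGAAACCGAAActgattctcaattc
The Isg15 stretch holds 3 overlapping matches and the Irgm1 stretch 2. A match describes the letters only and does not show that a factor was bound.

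Of 25 type I interferon response genes, 20 were higher in undifferentiated macrophages, none was lower, and the median difference was 2.38. With library medians subtracted, 17 were higher. Over all genes the higher share was 21.8%, and 7.81% with medians subtracted. Isg15, a ubiquitin-like protein whose promoter is shown above, scored -3.24, -2.40 and -1.60 in normal microglia and 0.050, 0.92 and 2.18 in the macrophages, a difference of 3.71 ± 0.45 (limma adjusted p = 4.8e-06). Irf7, the factor that amplifies the response, scored -3.94, -2.74 and -1.94 and 0.30, 1.27 and 2.19, a difference of 4.18 ± 0.48 (limma adjusted p = 2.9e-06). Zbp1, a nucleic acid sensor that can start necroptosis, differed by 3.27 ± 0.55. Rsad2, the antiviral protein viperin, differed by 2.82 ± 0.49 (limma adjusted p = 2.8e-04). Oas3, an oligoadenylate synthetase, differed by 3.21 ± 0.74, but it lost its call when normal microglia library 2 (2.47, limma adjusted p = 0.11) or library 10 (1.96, 0.079) was left out. Normal microglia were the lowest population for Isg15, with tumour microglia at -1.03, 0.77 and 2.04. Tumour microglia were also higher than normal microglia for 20 of the 25 genes, with a median of 2.14, in a comparison that called 4.66% of all genes higher. Against undifferentiated macrophages, 1 of the 25 was higher in tumour microglia and none was lower. The rise was thus not particular to the macrophages.

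The interferon-gamma GTPases, which attack vacuoles that hold microbes, were higher for 10 of 12 members, with a median of 2.23, for 7 with library medians subtracted and for 6 without normal microglia library 2 or 26. Over all genes the higher share was 21.8%, and 7.81% with medians subtracted. Gbp4 differed by 3.04 ± 0.57, Gbp8 by 3.03 ± 0.58, Iigp1 by 2.54 ± 0.44 and Gbp2 by 2.42 ± 0.48. Gbp genes are close copies of each other, so reads may have been divided between them. Igtp, of the Irg family, was near the threshold at 1.34 ± 0.50 (limma adjusted p = 0.049), and Irgm1, whose promoter is also shown, was not called at 0.89 ± 0.44 (limma adjusted p = 0.13). Tumour microglia were higher than normal microglia for all 12 members, with a median of 2.34. None of the 12 was called between tumour microglia and undifferentiated macrophages.

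Genes of antigen presentation were higher in part. The shares over all genes were 21.8% higher and 6.18% lower, or 7.81% and 10.6% with library medians subtracted. Among MHC class II genes 5 of 11 were higher, 1 was lower and 5 were not called, with a median of 2.40. H2-Ab1, the class II beta chain, scored -4.02, -3.29 and -2.005 in normal microglia and 0.55, 1.46 and 1.97 in undifferentiated macrophages, a difference of 4.83 ± 0.41 (limma adjusted p = 5.9e-08). H2-Eb1 differed by 4.41 ± 0.40, H2-Aa by 4.22 ± 0.38, the invariant chain Cd74 by 3.13 ± 0.40 and Ciita, the master activator of these genes, by 3.07 ± 0.58. H2-Ob, an inhibitory chain known from B cells, was lower at -1.37 ± 0.47, but in 10 of the 16 fits without 1 library no class II gene was called lower. The peptide-loading chain H2-DMa, at 0.73 ± 0.38, was not called. Of 14 MHC class I genes 12 were higher, with a median of 1.47, but only 6 with library medians subtracted, 6 without normal microglia library 2 and 7 without library 1 or 26 or undifferentiated macrophage library 29. H2-K1 differed by 2.46 ± 0.29 (limma adjusted p = 3.3e-06), H2-Q7 by 2.10 ± 0.43 and the peptide transporter chains Tap1 and Tap2 by 1.89 ± 0.30 and 1.90 ± 0.37. H2-K1 and H2-Q7 are close copies within their family. Tumour microglia were higher than normal microglia for 9 of the 14 class I genes, with a median of 1.53. They were also higher for 6 of the 11 class II genes, with a median of 1.25.

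Cytokines and chemokines differed by member. Their counts stand beside 21.8% of all genes higher and 6.18% lower. Il1b, the inflammasome-released cytokine, scored -3.92, -2.38 and -1.69 in normal microglia and 0.51, 1.92 and 2.82 in the macrophages, a difference of 4.81 ± 0.56 (limma adjusted p = 3.1e-06), and Il1rn, its natural receptor antagonist, differed by 4.46 ± 0.51 (limma adjusted p = 2.7e-06). Of the 10 inflammatory cytokine genes 6 were higher and 2 lower, but 2 and 1 without normal microglia library 2, 4 and 0 without library 1 and 4 and 1 without library 26, and the lower ones were Tgfb1 and Il18, the latter at -2.11 ± 0.48. Tnf scored -3.82, -1.59 and -0.26 and -1.32, 0.51 and 1.26. Its groups overlapped, and its difference of 2.31 ± 0.54 (limma adjusted p = 0.0037) was 2.18 (adjusted p = 0.061, limma) without normal microglia library 2. The neighbouring alarm cytokine Il1a was at -0.84 ± 0.45 and was not called.

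Among 11 CC chemokines 5 were higher and 6 were not called, with a median of 0.90, and 4 were higher with library medians subtracted and 3 without normal microglia library 2. The higher share of all genes was 21.8%, and 7.81% with medians subtracted, and the lower share was 6.18%. Without library 10 or 18, 1 was called lower. Ccl7 differed by 4.14 ± 0.60 (limma adjusted p = 4.4e-05), Ccl5 by 3.25 ± 0.57 (limma adjusted p = 3.4e-04) and Ccl2, the ligand of Ccr2, by 3.23 ± 0.46 (limma adjusted p = 3.4e-05). Ccl8 differed by 4.22 ± 0.92, or by 3.15 (adjusted p = 0.10, limma) without normal microglia library 2. Ccl3, the neighbour of Ccl4, was at -0.64 ± 0.40 and not called. Of 6 CXC chemokines 5 were higher, led by the T cell attractants Cxcl10 at 3.82 ± 0.45 (limma adjusted p = 3.7e-06) and Cxcl9 at 3.10 ± 0.58. Cxcl11, which shares their receptor, differed by 2.79 ± 0.59, or by 2.44 (adjusted p = 0.055, limma) without normal microglia library 2, and Cxcl2, which draws neutrophils, by 2.74 ± 0.57. Among 10 chemokine receptors, 6 were higher, with Cxcr4 at 3.17 ± 0.51 and Ccr1 at 3.15 ± 0.53 after Ccr2, and 2 were lower, Cx3cr1 among them. Without normal microglia library 2 the counts were 4 and 1, and without library 10 or undifferentiated macrophage library 24 they were 6 and 1.

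Alternative activation genes were higher for 8 of 12 members (66.7%, beside 21.8% of all genes), none was lower, and the median was 2.67. Arg1, the arginase that removes arginine from the surroundings, scored -3.71, -2.92 and -1.96 in normal microglia and 0.22, 2.14 and 3.47 in undifferentiated macrophages, a difference of 4.97 ± 0.90 (limma adjusted p = 4.9e-04). Mrc1, the mannose receptor, scored -3.44, -1.95 and -0.94 and 0.52, 1.63 and 2.21, a difference of 3.74 ± 0.54 (limma adjusted p = 4.0e-05). The scavenger receptor Msr1 differed by 3.86 ± 0.45 and the lectin Clec10a by 3.12 ± 0.60. Cd163, another scavenger receptor, was at -0.030 ± 0.53 and was not called.

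Immune checkpoint and costimulation genes were split, with 6 of 14 higher, 2 lower and 6 not called. The shares were 42.9% and 14.3%, beside 21.8% and 6.18% of all genes, or 7.81% and 10.6% of all genes with library medians subtracted. Without normal microglia library 2, 3 were higher and 1 lower, and without library 1 or 10 the lower count was 1. Cd40 differed by 4.38 ± 0.57 (limma adjusted p = 1.1e-05), the inhibitory receptor Lilrb4 by 3.30 ± 0.37, Cd274, which encodes PD-L1, by 3.06 ± 0.40 (limma adjusted p = 1.2e-05) and Pdcd1lg2, which encodes PD-L2, by 2.63 ± 0.56. The costimulatory ligand Cd86 was at 0.049 ± 0.49 and not called. With library medians subtracted 5 were higher and 4 lower. The lower pair was Sirpa, the receptor for the signal Cd47, at -1.11 ± 0.33 and 4632428N05Rik, the gene of the checkpoint protein VISTA, at -2.24 ± 0.31.

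The complement list divided evenly into 5 higher and 5 lower genes of 13, but 3 and 2 without normal microglia library 10 and 4 and 3 without library 2 or 26. Each share of the full fit was 38.5%, beside 21.8% of all genes higher and 6.18% lower. Cfb, factor B of the alternative pathway, scored -3.62, -3.27 and -2.20 in normal microglia and 1.29, 1.94 and 2.77 in the macrophages, a difference of 5.52 ± 0.46 (limma adjusted p = 4.9e-08). C3, the central component, differed by 4.90 ± 0.52 (limma adjusted p = 9.3e-07) and Cfp, properdin, by 4.05 ± 0.56. The lower genes included the 3 chains of C1q, which starts the classical pathway: C1qa at -1.69 ± 0.34, C1qb at -1.97 ± 0.35 and C1qc at -0.81 ± 0.30.

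Genes that microglia switch on near plaques and dying neurons, the disease-associated list, also divided, with 8 of 19 higher, 3 lower and 8 not called, and a median of 0.49. The shares were 42.1% and 15.8%, beside 21.8% and 6.18% of all genes, or 7.81% and 10.6% of all genes with library medians subtracted. Lgals3, galectin-3, differed by 4.87 ± 0.53 (limma adjusted p = 1.3e-06), Fabp5, a fatty acid-binding protein, by 4.83 ± 0.44 (limma adjusted p = 1.5e-07), Spp1, osteopontin, by 3.50 ± 0.57, Axl by 3.39 ± 0.51 and Apoe by 2.71 ± 0.48. Trem2, the lipid receptor on which this state depends, was lower at -2.93 ± 0.30 (limma adjusted p = 5.9e-07), as were Ctsd at -2.21 ± 0.35 and Cd9 at -1.995 ± 0.40. Lipid handling genes were higher for 9 of 15 members, with none lower and a median of 1.31, though 1 was lower without normal microglia library 18. Plin2, which coats lipid droplets, differed by 4.13 ± 0.45 (limma adjusted p = 1.3e-06), and Nr1h3 is given above. The cholesterol exporters Abca1 at -0.62 ± 0.34 and Abcg1 at 0.28 ± 0.36, known LXR targets, were not called. Abca1 was lower at -1.10 (limma adjusted p = 0.027) once library medians were subtracted, when 7 members were higher.

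Lysosomal, integrin, Fc receptor and Toll-like receptor genes had list medians between -0.20 and 0.24, below the median of all genes. Over all genes 21.8% were higher and 6.18% lower. The shares were 11.1% and 27.8% for lysosomal genes, 42.9% and 14.3% for Fc receptors and 0% and 13.3% for Toll-like receptors. Of 18 lysosomal genes 2 were higher and 5 lower, with Ctsc at 1.42 ± 0.28 and Npc2 at 1.503 ± 0.30 higher and Ctsd, Hexa, Ctsa and Gaa among the lower, but only 2 were lower without normal microglia library 1 or 2 and 3 without library 10 or 26 or undifferentiated macrophage library 29 or 32. Of 13 integrin chains 3 were higher, Itgal at 2.53 ± 0.51, Itgax at 2.11 ± 0.47 and Itga4, and 4 were lower, Itga6 at -2.58 ± 0.34, Itgb5 at -1.99 ± 0.30, Itgb3 at -1.85 ± 0.53 and Itgam at -1.06 ± 0.32. The higher share, 23.1%, was near the 21.8% of all genes, and the lower share was 30.8% beside 6.18%. Without normal microglia library 26 the counts were 2 and 2. Fcgr4 at 2.53 ± 0.40 and Fcgr2b at 2.07 ± 0.33 were among 3 higher Fc receptors of 7, and the 1 lower member, Fcgrt, was not called in 7 of the 16 fits without 1 library. No gene of the Toll-like receptor list was higher and 2 of 15 were lower, Tlr3 at -1.11 ± 0.35 and Tlr7 at -1.08 ± 0.37, and each of these lost its call in 6 or more of the 16 fits without 1 library, in which from 0 to 2 genes of the list were higher and from 0 to 3 lower.

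Metabolic, cycling and immediate early genes had list medians between 0.44 and 1.39. Of 15 glycolytic genes 6 were higher and 1 lower, with a median of 0.63, led by Pfkp at 3.30 ± 0.50 (limma adjusted p = 7.6e-05) and Pgk1 at 2.495 ± 0.39. Of all genes 21.8% were higher and 6.18% lower, or 7.81% and 10.6% with library medians subtracted. Of 10 hypoxia genes 4 were higher, with a median of 0.95, but 2 without normal microglia library 1 or 10. Bnip3, Egln3 and Vegfa each lost the call in at least 1 such fit, and Ero1l, an oxidase of the endoplasmic reticulum, differed by 1.76 ± 0.33. Of 16 respiratory chain genes 5 were higher (31.2%), with a median of 0.44, and 2 with library medians subtracted. The count was also 2 without normal microglia library 10 or 26, and 3 without library 1 or undifferentiated macrophage library 29. Of 19 proliferation genes 4 were higher (21.1%, near the share of all genes) and 15 not called. The count was 1 without normal microglia library 2 or 26 or undifferentiated macrophage library 29 and 2 without normal microglia library 17. After library medians were subtracted 1 gene was called, Mcm4, a subunit of the replicative helicase, at 1.88 against 2.36 ± 0.39 before. Of 16 immediate early genes, which respond within minutes and also to cell handling, 8 were higher and 2 lower, and 4 were higher and 3 lower after library medians were subtracted. Without normal microglia library 26, 4 were higher and 1 lower, and without library 2 or undifferentiated macrophage library 29, 6 and 0. In 4 further fits without 1 library the lower count was 1. Ier3 differed by 3.87 ± 0.43, Atf3 by 2.53 ± 0.53 and Dusp1 by 2.33 ± 0.38, while Egr1 was lower at -1.28 ± 0.41.

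Other genes among the 12 largest higher differences were Pla2g7, a lipoprotein-associated phospholipase, at 5.19 ± 0.53, AB124611 at 4.97 ± 0.59, AA467197 at 4.85 ± 0.53 and Rab8B, a trafficking GTPase, at 5.44 ± 1.16. Rab8B was at 3.92 (adjusted p = 0.055, limma) without normal microglia library 1. The other 11 genes kept their calls whichever 1 of the 16 libraries was left out.

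Markers of other cells that a sort could hold were examined in the same fit, in which 21.8% of all genes were higher and 6.18% lower. Border-associated macrophage markers were higher for 6 of 8 genes, and their mean score ran from -1.78 to -0.63 in normal microglia and from 0.48 to 1.87 in undifferentiated macrophages. Among them Siglec1 differed by 3.40 ± 0.56 and Cd38 by 2.90 ± 0.50, while Mrc1 and Ms4a7 are also on lists above. Cd163, also a member, was not called at -0.030. In differentiated macrophages the mean score ran from 0.61 to 1.95. Dendritic cell markers were higher for 3 of 6, with Xcr1 at 2.80 ± 0.50, and lower for Fscn1, but higher for 1 without normal microglia library 2 or 26, and their mean score ran from -0.88 to 0.25 in normal microglia and from -0.24 to 0.73 in the macrophages. NK cell markers were higher for 2 of 3, with means from -2.21 to 0.36 and from 0.052 to 1.45, and none of them was called after library medians were subtracted or in 11 of the 16 fits without 1 library. B cell markers were higher for 3 of 4, with means from -0.91 to 0.38 and from -0.18 to 1.07, and Cd79b was lower. Without normal microglia library 2 no B cell marker was higher, without library 26 only 1 was, and without library 10 Cd79b was not called. Neither of the 2 T cell genes was called, with means from -1.45 to 0.56 and from -0.40 to 1.51. Of 2 neutrophil markers, with means from -1.19 to 0.83 and from -0.46 to 0.30, Csf3r was lower at -1.71 ± 0.34 and Cxcr2 higher at 1.73 ± 0.46, or 0.80 (adjusted p = 0.36, limma) without normal microglia library 2 and 1.72 (adjusted p = 0.059) without library 26. Glioma cell markers were higher for 3 of 5, with means from -1.66 to -0.71 and from 0.33 to 1.76, but 2 of these 3, Cd44 and Vim, are also on the monocyte or macrophage lists. Endothelial and pericyte markers were higher for 3 of 7, but 1 without normal microglia library 2, with means from -1.04 to -0.12 and from 0.058 to 1.22. Astrocyte markers were higher for 1 and lower for 1 of 8 genes, with means from -1.47 to 0.11 and from -0.0043 to 0.95. Oligodendrocyte markers were higher for 1 of 7, with means from -0.86 to 0.56 and from 0.078 to 0.61. Leaving out 1 library gave from 0 to 3 higher astrocyte and from 0 to 2 higher oligodendrocyte markers. No neuron marker of 5 was called, with means from -0.87 to 0.69 and from -0.093 to 0.84. The scores are centred, so whether a marker was at 0 cannot be read from them, and the part of these cells in the differences was not tested.

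Tumour microglia were then set beside both populations, to find genes for which undifferentiated macrophages were close to normal microglia while tumour microglia differed from both. The rule asked that limma call tumour microglia against normal microglia and against undifferentiated macrophages in the same direction, and that the macrophages differ from normal microglia by at most 0.5 units, without a call and with a 95% interval inside -1.5 to 1.5. It selected 62 genes with tumour microglia above both (0.353% of genes) and 699 with tumour microglia below both (3.97%). Library medians of tumour microglia were low, from -0.63 to -0.023. Over all genes their median difference was -0.245 from normal microglia and -0.71 from undifferentiated macrophages. With library medians subtracted the counts were 331 and 719. The part of this shift in the selection was not tested, and the scores do not show how much RNA of a selected gene was present. The separate comparisons called 4.66% and 12% of genes higher and lower in tumour than in normal microglia, and 5.19% and 36.7% higher and lower in tumour microglia than in undifferentiated macrophages. They share the tumour microglia libraries, and the selected genes are described with no test.

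Ccl12, a ligand of Ccr2, led the 62 genes. It scored -2.17, -0.86 and 0.60 in normal microglia, -1.28, -0.80 and 0.70 in undifferentiated macrophages and 0.96, 1.40 and 2.42 in tumour microglia, so each tumour microglia library was above every library of the others. The macrophages differed from normal microglia by 0.10 ± 0.40, and tumour microglia from normal microglia by 2.66 ± 0.38. Myc, a growth-promoting transcription factor, scored -1.94, -0.83 and 0.62, -1.20, -0.60 and 0.54 and 0.58, 1.22 and 2.24 in the same order, and the macrophage difference was 0.35 ± 0.40 beside 2.23 ± 0.38 for tumour microglia. Raly, an RNA-binding protein, had 0.041 ± 0.47 beside 2.19 ± 0.43. Shcbp1 and Stmn1, which accompany cell division, had 0.21 ± 0.49 beside 2.22 ± 0.46 and -0.24 ± 0.49 beside 1.98 ± 0.46. Of the 62 genes 5 are on any of the lists, Ccl12 and Stmn1 among them. The others were Cd86, a costimulatory ligand, at 0.049 for macrophages and 1.57 for tumour microglia, and the lysosomal proteases Ctsl at -0.034 and 1.16 and Ctss at 0.16 and 0.98. The other genes named by size were Pycrl, Hist1h2bc, AK217986, Thap7 and Hist2h2aa2, and histone genes are close copies of each other.

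Ccl4 and Cst7 lay outside the rule. Tumour microglia scored 1.63, 3.27 and 5.59 for Ccl4, above normal microglia by 4.40 ± 0.94 (limma adjusted p = 0.0037), but the macrophages were 1.32 units below normal microglia, past the limit of 0.5, with a 95% interval from -3.41 to 0.78. For Cst7, tumour microglia scored 1.33, 1.71 and 3.13, above normal microglia by 2.71 ± 0.40 (limma adjusted p = 2.2e-04), and the macrophage difference of -0.502 was just past the limit. Just inside the limit lay Scap at 0.46 and 1700034H14Rik at -0.499. So both genes were high in tumour microglia among the populations compared here, and undifferentiated macrophages were not called against normal microglia for either.

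**Figure D4:**
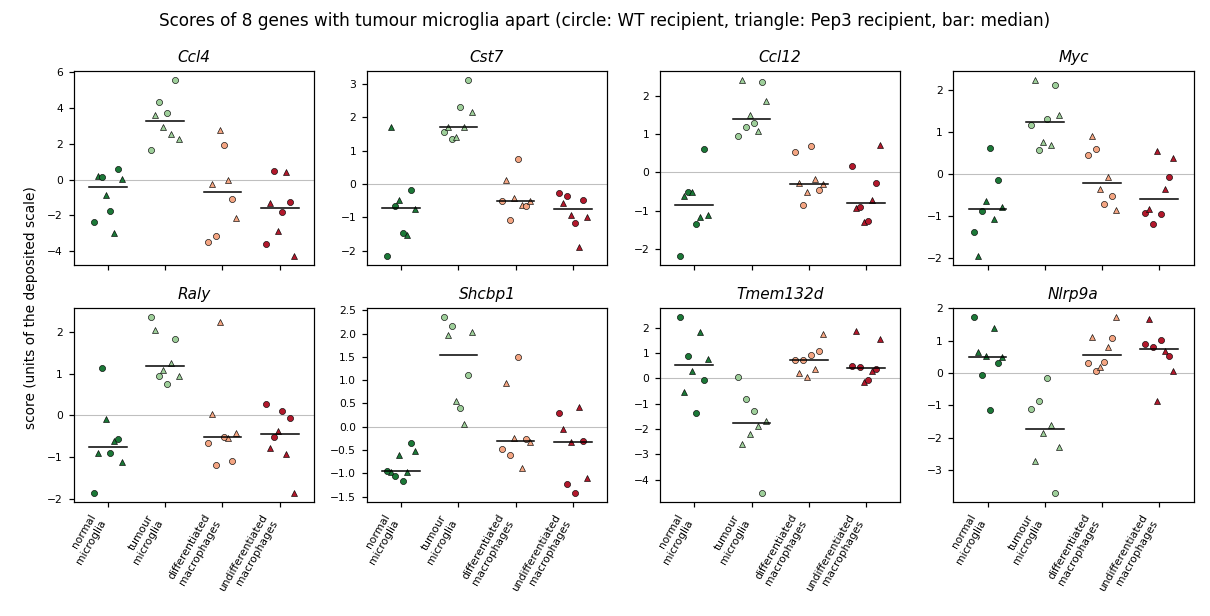
Scores of 8 genes in every library of the 4 populations, in units of the deposited scale, with circles for WT and triangles for Pep3 recipients and a bar at each median. Tumour microglia are high for Ccl4, Cst7, Ccl12, Myc, Raly and Shcbp1 and low for Tmem132d and Nlrp9a, while the medians of normal microglia and undifferentiated macrophages lie within 1.2 units of each other.

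Of the 699 genes with tumour microglia below both, 2 were on any of the lists, Snap25, which encodes a synaptic fusion protein, and Tgfb2. Tmem132d, a membrane protein known from neurons, scored -1.35, 0.52 and 2.43 in normal microglia, -0.13, 0.41 and 1.86 in undifferentiated macrophages and -4.53, -1.77 and 0.039 in tumour microglia. Its macrophage difference was 0.12 ± 0.58, and tumour microglia differed from normal microglia by -2.72 ± 0.54. Nlrp9a had 0.11 ± 0.42 beside -2.64 ± 0.39, the protocadherin Pcdha3 -0.19 ± 0.54 beside -2.90 ± 0.51, Lrtm1 -0.18 ± 0.48 beside -2.80 ± 0.45 and Ppp1r3a, a glycogen phosphatase subunit of muscle, 0.095 ± 0.44 beside -2.44 ± 0.41. Protocadherin alpha genes share exons, so reads may have been divided between them. The remaining genes named by size were Gm14374, AK133337, 2900026A02Rik, 5031410I06Rik and Mmrn1. The macrophage difference of Mmrn1, 0.12 ± 0.43, averages strains that differed from each other by 9.301 in it, WT minus Pep3 (limma interaction, adjusted p = 0.00045), with normal microglia library 2 apart at 4.329. Rows of olfactory, vomeronasal and bitter taste receptors, a set chosen after these values were seen, made up 57 of the 699, or 7.2% of the 792 such rows in the table. In undifferentiated macrophages 253 of those 792 rows (31.9%) were higher than in normal microglia and 0 lower (limma), with a median difference of 0.92, and 77 were higher and 2 lower after library medians were subtracted. Over all genes 3.97% had tumour microglia below both, and 21.8% were higher and 6.18% lower in the macrophages, with a median of 0.57. With library medians subtracted, 7.81% of all genes were higher and 10.6% lower.

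Both selections depended on single libraries and on scaling. With library medians subtracted, 331 genes had tumour microglia above both, of which 38 were among the 62, and 719 below both, of which 264 were among the 699. Without normal microglia library 1 the counts were 0 and 52, without library 2 27 and 707, without library 10 12 and 251, without library 17 75 and 1136, without library 18 17 and 152, and without library 26 8 and 488. Without tumour microglia library 27 they were 17 and 203. Ccl12 was kept in 28 of 34 alternative settings, Raly in 26, Myc in 25, Shcbp1 in 23 and Stmn1 in 21, and the median member of the 62 in 17.5.

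Whether the difference between undifferentiated macrophages and normal microglia itself differed between WT and Pep3 recipients was tested for every gene. Recipient strain changed together with experiment in both populations, and with graft in the macrophages. A difference between recipient strains therefore cannot be told apart from experiment or graft. Limma called 4 of 17586 genes, with 1457 at an unadjusted p below 0.05. None of the markers of monocytes or microglia was among the 4, and for Ly6c2 the WT minus Pep3 value was 1.90 ± 1.15 (limma adjusted p = 0.70) and for P2ry12 it was 0.98 ± 1.13 (0.86). A p that misses the threshold does not show that the strains were alike.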

How the data were processed

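RNA was sequenced from cells sorted out of mouse brain, in 32 libraries of 4 populations. Per the submitters' processing notes, FastQC, STAR 2.5.0a and RSEM 1.3.0 were used with genome build mm9, and RSEM divides reads that fit several copies of a gene. The authors deposited 1 table of 17586 genes, whose signed scores run from -6.50 to 6.92 and have no stated scale. Each gene averages 0 over all libraries and within each recipient strain in the deposited scores, and 11 sample directions hold no variation: the overall mean, the strain difference and 9 that the labels do not name. The step that removed them is not given in the sources used here. Depth and expression level are unknown, so no filter, logarithm or fold change was used.

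A linear model was fitted to every gene over all 32 libraries (limma 3.58.1, R 4.3.3). It held a mean for each population and strain and a covariate for each of the 9 unnamed directions, with 15 residual degrees of freedom. Variances were moderated by robust empirical Bayes, tests were two-sided, and p-values were adjusted over all genes by Benjamini and Hochberg's method. Values were averaged over strains, and 85.5% of the contrast was left after the removed directions. Columns were matched to libraries by the numbers in their names. On simulated scores with the real residual spread, the unadjusted p was below 0.05 for 5.21% of genes left unchanged (7.89% without the covariates), and 10%, 50%, 92% and 98% of 200 genes changed by 1, 2, 3 and 4 units were called, for this comparison and 17586 genes. The simulation drew each library independently, with no shift of library medians. The real fit called 4925 genes, far more than the 200 changed there, so these rates need not hold for it.

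Genes were named by rule: the 12 largest called differences in each direction whose libraries do not overlap, leaving out predicted genes; 20 fixed genes; up to 4 called members with the largest differences from each list; and 10 genes in each direction with tumour microglia apart. Further list members are named to describe their lists, as chosen after their values were seen. The comparison, its 39 lists and the rules were chosen with earlier results of these data known. Of 460 listed genes 405 had a row, 2 through older symbols, and the 4 erythroid genes had none. Promoter stretches were matched by symbol to RefSeq, GRCm38.p6, since no mm9 sequence was used. Alternatives changed scaling, covariates, variance, threshold and libraries. Values of some list members are not reported here, although the counts over each list include them.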

Additional observations from a re-analysis of the deposited data

Results flagged for a closer look

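Single libraries stood apart in 24 of the 322 groups of 8 examined, where the gap from the highest or lowest library to the next, as a share of the range, was over Dixon's 95% critical value. Chance alone flags about 1 in 20 groups. Normal microglia library 2 was the one apart in 7 of them: AA467197 at -4.198, S100a4 at -2.809, Chi3l3 at -4.561, Cox5a at -2.414, Dusp1 at -2.686, AK217986 at 2.861 and Mmrn1 at 4.329. Library 17 of normal microglia was low for Itga4 at -3.004, Cxcl9 at -3.898 and AK133337 at -2.272. Among the other normal microglia, library 9 was apart for Zbp1 at -3.128 and Mcm5 at 1.017, library 25 for Tlr7 at 1.696 and Xcr1 at -3.908, and library 10 for H2-Aa at -1.894.

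In undifferentiated macrophages, library 32 was low for Bin1 at -4.236, Cd79b at -3.534 and Msr1 at -0.489. Library 5 was apart for Itgal at -1.206 and Thap7 at 1.895, library 21 for Pla2g7 at 3.497, library 13 for Fcgrt at -3.144, library 16 for Ctsd at 0.058 and library 24 for Ldha at -0.536. For S100a4, Chi3l3, Zbp1, H2-Aa, Cxcl9, Xcr1, Msr1, Bin1 and Pla2g7 the groups did not overlap with the library that stood apart included. Where that library lay on the side away from the other group, as for Cxcl9 and Bin1, it could not have made them overlap.

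The difference between undifferentiated macrophages and normal microglia itself differed between recipient strains for 4 genes (limma interaction, Benjamini-Hochberg adjusted over 17586 genes). Recipient strain cannot be told apart here from experiment or, in the macrophages, from graft. WT minus Pep3, it was 9.301 for Mmrn1 (adjusted p = 0.00045), 6.225 for Vmn2r63 (0.042), -7.173 for mKIAA0897 (0.011) and -7.34 for mTOP3beta (0.042). Mmrn1, multimerin of platelets and endothelium, differed by 0.12 ± 0.43 between the populations over both strains, and its score of 4.329 was in normal microglia library 2, from a Pep3 mouse.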

How the results depend on the processing

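Counts below are genes higher and lower in undifferentiated macrophages, then genes with tumour microglia above and below both. Beside 3838, 1087, 62 and 699, subtracting library medians gave 1373, 1860, 331 and 719, and 2 strain interactions in place of 4. Fitting only the libraries of the groups compared gave 283, 155, 8 and 330, with fewer residual degrees of freedom. Library weights gave 1877, 668, 9 and 338, and an adjusted p below 0.01 gave 1562, 581, 11 and 307. Without the 9 libraries that kept under 50% of their variation, the counts were 2, 2, 0 and 0 (1619 higher and 768 lower at an unadjusted p below 0.05, limma). Without those libraries and with no terms for the removed directions, they were 2564, 745, 0 and 4, and 2212 and 699 of these calls were the same genes as in the full fit. Leaving out only the terms gave 124 genes with tumour microglia above both. WT recipients alone gave 0 in all 4 counts (1442 and 538 at an unadjusted p below 0.05), and Pep3 recipients alone 341, 119, 0 and 0, each with 3 residual degrees of freedom. A likeness limit of 0.25 gave 365 below both, and a limit of 1 with no interval condition 94 above and 1399 below. Leaving out 1 library at a time, the counts ranged from 1272 to 4602 higher, 649 to 1073 lower, 0 to 78 above both and 52 to 1136 below both. The cause of these changes was not tested.

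Of the 139 named genes called between the populations, 40 lost the call in at least 1 of 16 fits without a library, but none changed direction there. Smaller fits ended far more calls. Of 141 genes named by size, fixed choice or list, 126 lost the call in WT recipients alone and 88 in Pep3 recipients alone. Without the libraries that kept under 50% it was 134, or 13 with no terms for the removed directions. With only the groups compared it was 74. Reversals are not in these counts. Directions reversed in small subsets. In WT recipients alone these were Spp1 at -0.29, Fcgr2b at -0.40, Fcer2a at -0.12, Fcgrt at 0.67, Itgal at -0.22, Ldha at -0.39, Mcm5 at -3.53, Ier3 at -0.19, Xcr1 at -0.48, Cd79a at -2.48, Ebf1 at -1.0026, Rgs5 at -1.92 and Nes at -0.81. In Pep3 recipients alone they were Fcgrt at 0.76, Bub1 at -0.021, Zbtb46 at -0.43, Klrb1c at -0.35 and Rgs5 at -0.67. Without the libraries that kept under 50% they were Tlr7 at 0.051, Bnip3 at -0.069, Klrb1c at -0.57 and Prf1 at -0.11. No paired analysis was run, because each library number belongs to 1 library, no 2 groups share one and no label names a pairing. The numbers run through the populations in a repeating order, but no label names such a run as a batch, and none was fitted as a block. Depth is unknown, so what it limits could not be assessed.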
